A study of Mus musculus with 3 samples.

Results

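miR-143 and miR-145 are the miRNAs best known from smooth muscle, and their probes were followed here across 3 mouse miRNA arrays of the skeletal myoblast line C2C12. All probes whose name begins with mmu-miR-143 or mmu-miR-145 were taken, 5 of the 1265 mouse miRNA probes of each array: mmu-miR-143-3p, mmu-miR-143-5p, mmu-miR-145a-5p, mmu-miR-145a-3p and mmu-miR-145b, written below without the species prefix. The family was chosen by the ratio of miR-145a-5p between differentiation and proliferation medium, which was already known to be high, so that contrast is given for it as a description and supports nothing further. C2C12-PR are C2C12 cells grown in proliferation medium with 10% fetal bovine serum, C2C12-DF are C2C12 cells in differentiation medium with 2% horse serum, in which this line forms myotubes, and W4-08-PR is a subline of C2C12 kept in the proliferation medium. The subline carries a stably integrated vector in which the CMV promoter drives V5-tagged Wnt4 with a blasticidin resistance gene. It is 1 line, W408 in the labels, and whether it is a single clone is not given in the sources used here. The parental cells are not described as carrying an empty vector. Neither the day of harvest nor the passage of the arrayed cultures is stated. Total RNA of 1 culture per condition was labelled with Cy5 and hybridized to 1 array, so no replicate stands behind any value and the conditions could not be tested against each other.

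The precursors of miR-143 and miR-145a are cut from 1 long noncoding RNA, Carmn, and in the RefSeq annotation of GRCm38.p6 Mir145a and Mir143 are direct neighbours within the Carmn gene. Mir145b lies elsewhere, within the gene model Gm31088. In smooth muscle, serum response factor and its partner myocardin switch the cluster on, and miR-145 and miR-143 favour the contractile state by repressing KLF4, KLF5 and ELK1. miR-143-3p and miR-145a-5p are the guide strands, which are loaded into the silencing complex. miR-143-5p and miR-145a-3p are the opposite arms of the same hairpins, which are mostly degraded. Striated muscle uses another set of miRNAs, among them miR-1, miR-133 and miR-206.

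Both guide strands were well above background on every array. Brightness is given as the spot intensity in arbitrary linear units less the background, taken as the trimmed mean of 1664 blank spots (5% left out at either end), which was 95.9 units for C2C12-PR, 101 for C2C12-DF and 99.9 for the W4-08-PR array. The ± is 1 technical SD, which combines the scatter of blank and of spike control spots and leaves out all variation between cultures. miR-145a-5p read 122 ± 12.4 units in C2C12-PR, 367 ± 36.9 in C2C12-DF and 339 ± 23.8 in W4-08-PR. It was therefore lowest in C2C12-PR in these units, which are not scaled between arrays. In the same units the 2 higher arrays differed by less than their technical spread, with W4-08-PR minus C2C12-DF at -27.7 ± 43.9 units. After the quantile normalization described below, the log2 ratio of these arrays was -0.40 ± 0.14, beyond its technical SD, so their likeness depends on the scaling. miR-143-3p read 111 ± 11.7 units in C2C12-PR, 116 ± 13.3 in C2C12-DF and 283 ± 20.2 in W4-08-PR. Here it was the C2C12-PR and C2C12-DF arrays that lay within the technical spread of each other, with C2C12-DF minus C2C12-PR at 5.19 ± 17.8 units, and W4-08-PR alone stood higher. In terms of the SD of all blank spots, the dimmest of these 6 readings, miR-143-3p in C2C12-PR, lay 14.6 SD above background, and none of the 1664 blank spots of any array was as bright as either guide strand. Since each array holds RNA of a whole culture, more cells that make a miRNA and more of it per cell cannot be told apart.

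**Figure D1:**
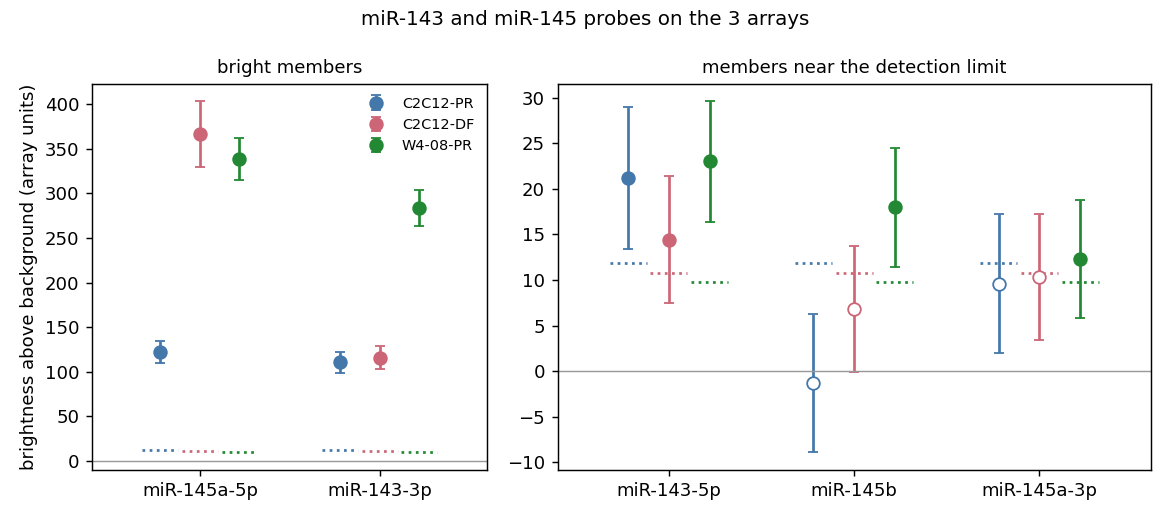
Brightness above background, in array units not scaled between arrays, of the 5 miR-143 and miR-145 probes on the C2C12-PR, C2C12-DF and W4-08-PR arrays (1 array each; bars are 1 technical SD, dotted lines the dimmest detected miRNA probe of that array, open circles undetected probes). miR-145a-5p is low only in C2C12-PR, at 122 units against 367 and 339, whereas miR-143-3p is high only in W4-08-PR, at 283 units against 111 and 116; the other 3 probes stay below 24 units, a level that blank spots also reach.

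The other 3 probes stayed near the detection limit. Detection was taken from the processed values, which the authors list only for probes above their limit, and the dimmest detected probe lay 11.9 units above background for C2C12-PR, 10.8 for C2C12-DF and 9.77 for W4-08-PR, a limit that 7.15%, 6.01% and 6.85% of the blank spots also reached. miR-143-5p, the passenger arm of miR-143, was detected on all 3 arrays, at 21.2 ± 7.78 units in C2C12-PR, 14.4 ± 6.98 in C2C12-DF and 23.0 ± 6.61 in W4-08-PR. The 3 values lie within their technical spread of each other, and 0.481%, 2.16% and 0.240% of the blank spots of the same arrays were as bright. miR-145b, which is encoded by a separate gene, read -1.28 ± 7.59 units in C2C12-PR, 6.83 ± 6.86 in C2C12-DF and 18.0 ± 6.54 in W4-08-PR, and it was detected in W4-08-PR only. There 15 of the 1664 blank spots, or 0.901%, were as bright, against 54.9% and 16.1% on the arrays of C2C12-PR and C2C12-DF. miR-145a-3p, the passenger arm of miR-145a, was also detected in W4-08-PR only, at 12.3 ± 6.48 units against 9.59 ± 7.63 in C2C12-PR and 10.4 ± 6.91 in C2C12-DF. The 3 readings of miR-145a-3p overlap within their technical SD, and 3.25% of the blank spots of W4-08-PR were as bright. At a stricter limit of 3 SD above the trimmed blank spots, miR-145a-3p in W4-08-PR and miR-143-5p in C2C12-DF were no longer detected, and miR-145b in W4-08-PR still was. The W4-08-PR array had the most detected probes in all, 477 against 339 for C2C12-PR and 370 for C2C12-DF, and its part in the detection of all 5 members there was not tested. Whether the probes of miR-145a-5p and miR-145b tell these miRNAs apart was not tested either. miR-145a-5p read 367 units on the C2C12-DF array, where miR-145b was undetected, and 339 units on the W4-08-PR array, where miR-145b was detected.

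Ratios between arrays were taken on the log2 scale after limma's normexp background correction, with an offset of 50 that shrinks the ratios of dim probes, and quantile normalization. A probe is called when the arrays differ by 2-fold or more, a log2 ratio of 1 or -1, and the brighter array detected it.

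Differentiation medium was compared with proliferation medium to see which miRNAs move with the switch to myotubes. In C2C12-DF miR-145a-5p stood 2.16-fold above C2C12-PR, a log2 ratio of 1.11 ± 0.14, the 2nd highest among the 285 probes detected on both arrays. Plain background subtraction gave 3.01-fold from the unscaled brightness. miR-143-3p, cut from the same transcript, had a log2 ratio of -0.13 ± 0.14, ranking 210 of the 285, and its sign depends on the scaling of the arrays (-0.20 to 0.27 over the alternatives). Relative to the median of the 277 probes detected on all 3 arrays, it lay between -0.30 and -0.06 under each choice tried. That is below the median, though under some choices by less than 1 technical SD. miR-143-5p had a log2 ratio of -0.15 ± 0.19. The median log2 ratio of the 285 probes was 0.04. So 1 of the 3 members detected on either array was called higher and none lower, where 0.708% and 3.77% of the 424 probes detected on either array were called higher and lower. Since miR-145a-5p was chosen for this very ratio, nothing is read from that share. miR-145a-3p and miR-145b were undetected on both arrays and have no ratio.

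The subline with Wnt4 was compared with its parent in the same proliferation medium because the study describes W4-08 cells as able to form myotubes without a change of serum. The C2C12-PR reading of miR-145a-5p was used in the choice of the family, so its ratio here is a description too. Both guide strands of the cluster read above the middle of the array in W4-08-PR, and neither reached the 2-fold limit. The log2 ratio of miR-145a-5p over C2C12-PR was 0.70 ± 0.11, or 1.63-fold, the 12th highest of 302 probes detected on both arrays. That of miR-143-3p was 0.57 ± 0.12, or 1.49-fold, the 17th highest. The median of the 302 probes was -0.03. miR-143-5p stood at -0.07 ± 0.18. For miR-145b, undetected in C2C12-PR, the difference is at least 1.02-fold against the lowest detected value, and for miR-145a-3p the bound is under 1 and no fold is given. None of the 5 members detected on either array was called in either direction, where 0.584% of 514 probes were called higher and 1.75% lower. Both guide ratios grow with the scale that is chosen. Scaled to the spike control spots after plain background subtraction, they were 1.41 ± 0.18 for miR-145a-5p and 1.28 ± 0.18 for miR-143-3p, and both were called higher. On that scale 50 of the 514 probes were called higher, and the 277 probes that every array detected had a median of 0.27. In the authors' processed values the guide ratios were 2.18 and 2.06, where the 277 probes have a median of 1.05 themselves. There 161 of the 302 probes were called higher. Relative to the median of those 277 probes, miR-145a-5p lay between 0.73 and 1.13 and miR-143-3p between 0.60 and 1.01 under each background and scaling choice tried, so both stayed above it.

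The subline was also set against C2C12-DF, where the value of miR-145a-5p is again a description, since its C2C12-DF reading was used in the choice. In W4-08-PR over C2C12-DF the log2 ratio of miR-143-3p was 0.70 ± 0.14, or 1.63-fold, the 16th highest of 323 probes detected on both arrays, and that of miR-145a-5p was -0.40 ± 0.14, ranking 288. The sign for miR-145a-5p turns with the scale, being 0.39 ± 0.18 in the authors' processed values and -0.17 ± 0.18 when scaled to the spike controls. Relative to the median of the 277 probes that every array detected, miR-145a-5p lay between -0.41 and -0.21 under each background and scaling choice tried. It thus stayed below that median. miR-143-5p had a ratio of 0.07 ± 0.16, and the median of the 323 probes was -0.03. miR-145b, undetected in C2C12-DF, was at least 1.04-fold higher, and for miR-145a-3p the bound was again under 1. None of the 5 members was called, where 1.15% of 524 probes were called higher and 1.15% lower. miR-143-3p was called higher on the spike scale, at 1.24, and in the authors' processed values, at 1.79. On the spike scale 53 of the 524 probes were called higher, and the 277 probes that every array detected had a median of 0.18. In the processed values 104 of the 323 probes were called higher, and that median was 0.74.

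**Figure D2:**
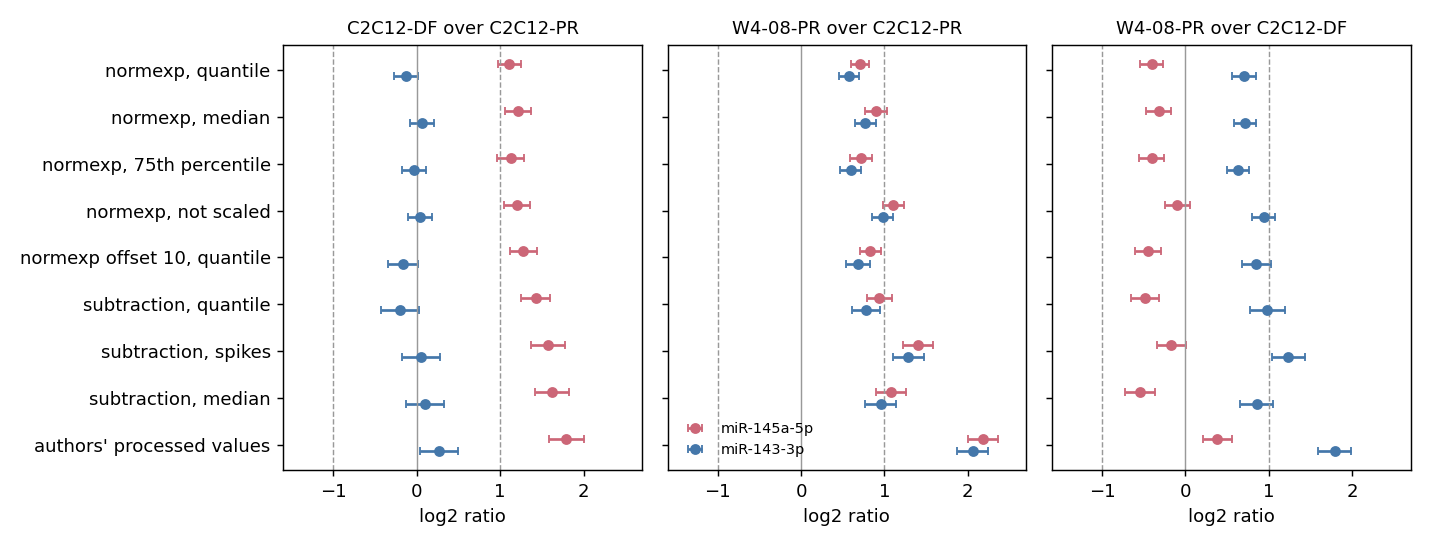
Log2 ratio of miR-145a-5p and miR-143-3p in the 3 comparisons (panels) under each background correction and scaling (rows); bars are 1 technical SD, the solid line marks no difference and the dashed lines the 2-fold limits. In C2C12-DF over C2C12-PR miR-145a-5p stays past the limit, from 1.11 to 1.80, and miR-143-3p near 0, from -0.20 to 0.27, while in W4-08-PR over C2C12-PR the points of both miRNAs move together with the scale.

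The difference between the 2 guide strands, a measure chosen after seeing the data, depends less on how the arrays are scaled, because a factor applied to a whole array cancels in it. In C2C12-DF over C2C12-PR the log2 ratio of miR-145a-5p exceeded that of miR-143-3p by 1.24 ± 0.20, so that the fold of miR-145a-5p was 2.36 times that of its neighbour. Over the other settings this difference lay between 1.16 and 1.63. In W4-08-PR over C2C12-PR the difference was 0.13 ± 0.16, within its technical SD, and between 0.12 and 0.16 over the other settings. In W4-08-PR over C2C12-DF it was -1.11 ± 0.20. The family was chosen by a ratio that holds the C2C12-DF and the C2C12-PR reading of miR-145a-5p. Each of these differences holds either or both of those readings, so their size is a description and nothing is read from it. Both of the first differences share the C2C12-PR array, and the technical SD does not cover differences between cultures.

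**Figure D3:**
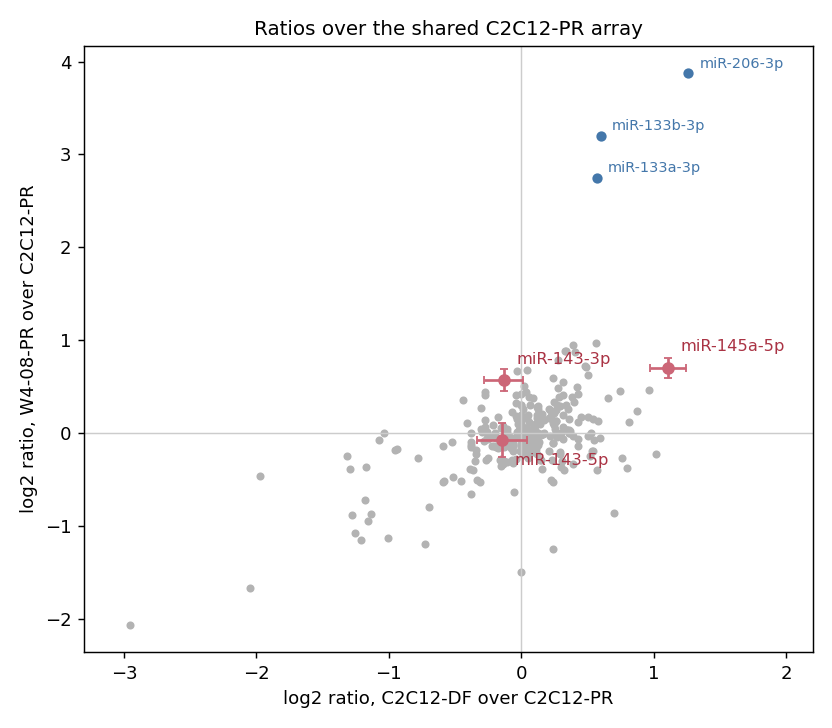
Log2 ratio over C2C12-PR of C2C12-DF (horizontal) and of W4-08-PR (vertical) for the 277 probes detected on all 3 arrays (grey), with 3 members of the miR-143 and miR-145 group (red, bars are 1 technical SD) and 3 miRNAs of striated muscle (blue). miR-145a-5p lies to the right at 1.11 and 0.70, miR-143-3p above the centre at -0.13 and 0.57, and miR-206, miR-133b and miR-133a far above both; the axes share the C2C12-PR array.

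Among the striated muscle miRNAs, which mark the labelled cell type, miR-206 and miR-133 gave another pattern. miR-206-3p, a miRNA of skeletal muscle, read 54.4 units in C2C12-PR, 219 in C2C12-DF and 1917 in W4-08-PR. miR-133a-3p and miR-133b-3p followed the same order of arrays. miR-1a-3p, the muscle miR-1, was undetected in C2C12-PR (2.76 units) and C2C12-DF (10.3 units) and read 31.3 units in W4-08-PR. Of the 19 probes of this list, 5 were detected on C2C12-PR and C2C12-DF, with a median log2 ratio of 0.59 and miR-206-3p alone called higher (1.26 ± 0.15). Over all probes the median was 0.04, and 0.708% were called higher. In W4-08-PR over C2C12-PR the same number detected on both arrays had a median of 2.75, and 3 of the 8 detected on either array were called higher. There the median of all probes was -0.03, and 0.584% were called higher. The rise was not shared by miR-486-3p and the probe common to miR-486-5p and miR-3107-5p, also in the list. Their log2 ratios were -0.05 and 0.23 in W4-08-PR over C2C12-PR. In C2C12-DF over C2C12-PR they were 0.59, which is the list's median there, and -0.07. In W4-08-PR over C2C12-DF the ratios of the list members detected on both arrays had a median of 2.18, where that of all probes was -0.03. miR-206-3p had the highest of them, at 2.61 ± 0.15.

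Other miRNAs linked to the smooth muscle phenotype had median log2 ratios near those of all probes. The list of 24 probes was drawn from miR-21a, miR-221, miR-222, miR-26a, miR-24, miR-31, miR-146a, miR-10a, miR-195a, miR-204 and miR-490, and 11 probes were detected on each array. In C2C12-DF over C2C12-PR their median log2 ratio was 0.01, where that of all probes was 0.04, and none was called, where 0.708% and 3.77% of all probes were called higher and lower. miR-21a-5p, linked to growth of smooth muscle cells, was the furthest from 0 at -0.95 ± 0.17, reading 826 units in C2C12-PR and 374 in C2C12-DF. miR-26a-5p followed at 0.31 ± 0.15 and miR-24-2-5p at -0.29 ± 0.15. In W4-08-PR over C2C12-PR their median was -0.05, where that of all probes was -0.03, and 2 of 11 were called lower and none higher, against 1.75% and 0.584% of all probes. These were miR-222-3p (-1.50 ± 0.22) and miR-221-3p (-1.25 ± 0.15), a pair that favours proliferating over contractile smooth muscle cells, and the next was miR-31-5p at -0.53 ± 0.17. In W4-08-PR over C2C12-DF the same pair was called lower, at -1.50 ± 0.13 and -1.49 ± 0.15, and the list's median was -0.06, where that of all probes was -0.03. None of the 11 was called higher there, against 1.15% of all probes.

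Among the probes most like miR-143-3p were those of the miR-199 group, which is typical of mesenchymal cells. Likeness was taken as the distance between the pairs of log2 ratios over C2C12-PR, of C2C12-DF and of W4-08-PR, over 3 arrays and among 276 other probes detected on all of them. miR-199a-5p was nearest at a distance of 0.14, with ratios of -0.03 ± 0.16 and 0.67 ± 0.13, and miR-199b-5p was next at 0.17. miR-199a-5p read 203 units in C2C12-PR, 219 in C2C12-DF and 498 in W4-08-PR, so that it too stood high in the subline alone. Then came miR-30a-5p (0.19), miR-3473e (0.19) and miR-16-5p (0.20), with the probe shared by miR-199a-3p and miR-199b-3p in place 6 at 0.20. These distances differ by less than the technical SDs of the ratios, so the order of these probes is not settled. When the likeness was taken on the spike scale, a ranking added after seeing the data, the 3 miR-199 probes took the first 3 places. miR-214-3p, which lies in the same transcript as miR-199a in the mouse, was in place 108 and on the spike scale in place 38. Of the 5 probes of miR-199 and miR-214, none was called in any of the 3 comparisons, and their medians were 0.02, 0.67 and 0.49 in C2C12-DF over C2C12-PR, W4-08-PR over C2C12-PR and W4-08-PR over C2C12-DF. The medians of all probes were 0.04, -0.03 and -0.03. Of all probes, 0.584% to 3.77% were called in a given comparison and direction. miR-145a-5p was in place 252 of the 276.

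For miR-145a-5p the nearest probes depended on the scale. With quantile normalization they were miR-1902 at a distance of 0.28, miR-30c-5p (0.44), miR-5122 (0.53), miR-100-5p (0.56) and miR-711 (0.61). The brightness of miR-1902, which is among the brightest probes, was 4047 units in C2C12-PR, 3812 in C2C12-DF and 4671 in W4-08-PR, so that it had no rise in C2C12-DF before quantile normalization, and its log2 ratio of 0.97 ± 0.46 there has the widest technical SD of the 5. miR-30c-5p, of the miR-30 family, read 293, 563 and 620 units in the same order, and miR-100-5p read 93.1, 187 and 186 units. Both were lowest in C2C12-PR, as miR-145a-5p was. On the spike scale the nearest were miR-365-1-5p, miR-362-5p, miR-34b-3p, miR-30a-3p and miR-1231-5p, at distances of 0.31 to 0.49, all of them dim on C2C12-PR, at 12.1 to 19.3 units. No probe was among the nearest 5 on both scales. miR-143-3p was in place 118 on the quantile scale and 94 on the spike scale.

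miRNAs of other cell types that a culture could hold were mostly undetected. Over the endothelial and blood, epithelial, neural and liver lists, 4 of 34 probes were detected in C2C12-PR, 2 in C2C12-DF and 5 in W4-08-PR, or 11.8%, 5.88% and 14.7%, where 26.8%, 29.2% and 37.7% of all 1265 probes were. Their summed brightness ran from 131 units on C2C12-DF to 155 on C2C12-PR. It was taken over all 34 probes, detected or not, with readings below background not counted. Of the defining miRNAs, miR-142-3p and miR-451a of blood, miR-200b-3p of epithelia, miR-124-3p of neurons and miR-122-5p of liver were undetected on all 3 arrays, and miR-126-3p of endothelium was detected in W4-08-PR only, at 10.8 units. Other blood miRNAs were detected on some arrays, with miR-144-3p, the brightest of these lists, at 48.3 units in C2C12-PR, miR-223-3p at 18.8 units in C2C12-PR and 13.5 in W4-08-PR, and miR-142-5p at 16.9 units in C2C12-DF and 9.82 in W4-08-PR. None of these probes was called in any comparison, where 0.584% to 3.77% of all probes were called in a given comparison and direction. miR-144-3p was undetected on C2C12-DF and W4-08-PR, where the limits were 10.8 and 9.77 units. With those undetected readings its log2 ratios over C2C12-PR were -0.75 and -0.74, short of the 2-fold limit. The normexp offset shrinks the ratios of dim probes, so the lack of a call does not show that miR-144-3p was unchanged. Of 22 probes of the stem cell miRNAs miR-290 to miR-295 and miR-302, 7, 7 and 9 were detected on the 3 arrays. None of the 22 was called, against the same shares of all probes. None of these lists marks smooth muscle cells or fibroblasts apart from myoblasts, and the part of such cells in the values was not tested.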

How the data were processed

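For each of the 3 conditions, total RNA was hybridized to 1 Toray 3D-Gene array. The authors deposited the intensity of every spot, without background subtraction, and processed intensity values that are background-subtracted and scaled by 1 factor per array (0.561, 0.647 and 0.914) to a median of 25 over detected probes. The array work was done with the maker's platform, and the scanner model, genome build and software are not given in the sources used here. The processed table matched the values beside the spots with a largest difference of 4e-06, and no column was left unmapped. The extraction kit differs between the sources, Isogen in the paper and miRNeasy in the labels.

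Normexp correction (offset 50, background from the trimmed blank spots, fitted on all 3200 spots) was run in limma 3.58.1 (R 4.3.3), followed by quantile normalization over the 1265 miRNA probes and log2 conversion with no filter or pseudocount. Other steps used Python 3.11.15, numpy 2.4.6 and pandas 2.3.3, with plots from matplotlib 3.10.9. The technical SD moves each spot by the combined blank and spike spread (spike CV 6.75% to 9.90%). With 1 array per condition, their number limits the precision, and no test was made. Named are all members, the 5 probes nearest in pattern to each guide strand, and members of the muscle lists with large ratios where detected on both arrays. Further probes are named where their values bear on a statement. Older names (miR-126, miR-142, miR-219, miR-290, miR-292) were matched to the lists. Alternatives were median, 75th percentile or no scaling, an offset of 10, plain subtraction, spike scaling, the processed values, a limit of 3 SD, detection required of both arrays, and calls from a log2 size of 0.9. The difference between guides, median scaling after plain subtraction and the ranking of likeness on the spike scale were added after seeing the data. Members and lists were chosen with earlier results of these data known.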

Additional observations from a re-analysis of the deposited data

How the results depend on the processing

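miR-145a-5p was called higher in C2C12-DF over C2C12-PR under all 8 alternatives of background or scaling, at 1.12 to 1.80. It moved past its technical SD to 1.42 with plain subtraction, 1.28 with an offset of 10, 1.57 on the spike scale, 1.62 with plain subtraction scaled to the median and 1.80 in the authors' processed values. In W4-08-PR over C2C12-PR it was 0.90 with median scaling, 0.94 with plain subtraction, 0.83 with an offset of 10, and past the 2-fold limit at 1.11 without between-array normalization, 1.41 on the spike scale, 1.08 with plain subtraction scaled to the median and 2.18 in the processed values. In W4-08-PR over C2C12-DF it was -0.10 without between-array normalization, -0.17 on the spike scale, -0.55 with plain subtraction scaled to the median and 0.39 in the processed values. Members called in W4-08-PR over C2C12-PR went from 0 to 1 without between-array normalization and with plain subtraction scaled to the median, and to 2 on the spike scale and in the processed values. In W4-08-PR over C2C12-DF they went from 0 to 1 on the spike scale and to 2 in the processed values, where the second is the dim miR-143-5p (1.17 ± 0.65).

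The number of all probes called, in C2C12-DF over C2C12-PR, W4-08-PR over C2C12-PR and W4-08-PR over C2C12-DF in that order, was 19, 12 and 12, against 64, 54 and 56 with plain subtraction, 29, 24 and 24 with an offset of 10, 64, 72 and 69 on the spike scale, 68, 61 and 70 with plain subtraction scaled to the median, and 63, 162 and 105 in the processed values. With 75th percentile scaling W4-08-PR over C2C12-PR gave 19. Of the 19, 3 were higher in the first comparison, against 42 of 63 in the processed values. In the second, 3 of 12 were higher, against 161 of 162, 50 of 72 on the spike scale, 12 of 18 without between-array normalization and 8 of 18 with median scaling. In the third, 6 of 12 were higher, against 104 of 105, 53 of 69 on the spike scale and 13 of 17 without between-array normalization. Background and scaling move the ratios through the construction of each setting, and the cause of single shifts was not tested. Below about 24 units above background blank spots reach the same brightness. Of the 3 dim members only miR-143-5p has ratios. Their technical SDs were 0.16 to 0.19 with normexp and quantile normalization, and 0.70 to 0.76 with plain subtraction. No replicate could be left out, and no paired analysis was possible because each condition has 1 array.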
